A study of Homo sapiens with 8 samples.

Results

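The cellular antioxidant system is described here through 33 genes of the NRF2 pathway and of the enzymes that handle reactive oxygen species, in LNCaP prostate cancer cells exposed to an inhibitor of O-GlcNAc transferase, to an inhibitor of cyclin-dependent kinases, or to both. The members were chosen by gene symbol, as a list of pathway genes, and all 33 were found among the 55737 genes of the deposited table. Of these, 32 reached a mean of 10 normalised counts over the 8 libraries and were tested together with 19393 genes in all, and the remaining one, GSTP1, was close to 0 in every library. The members were listed under 7 roles. The sensor and its transcription factors, with OSGIN1 listed beside them, made 4 genes. Quinone, heme and iron handling had 4, glutathione synthesis and recycling 4, and the thioredoxin and peroxiredoxin system 9. There were 4 of NADPH supply and the pentose phosphate pathway, 5 glutathione peroxidases, transferases and an exporter, and 3 superoxide dismutases and catalase.

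LNCaP is a human prostate cancer line with a functional androgen response, grown from a lymph node metastasis. The 4 groups, each of 2 RNA sequencing libraries harvested 4 hours after treatment, received 40 µM OSMI-2 together with 0.5 µM AT7519 (combination), 0.5 µM AT7519 alone, 40 µM OSMI-2 alone, or a control whose vehicle the labels do not name. OSMI-2 blocks O-GlcNAc transferase (OGT), which attaches single sugar residues to nuclear and cytosolic proteins, and AT7519 blocks several cyclin-dependent kinases including CDK9, the kinase that releases paused RNA polymerase. The series asks whether cells with OGT inhibited depend on CDK9, and its treatment label gives the doses with the same figures in mM where the design text has µM.

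NRF2, the protein of NFE2L2, is made continuously and destroyed within minutes while its sensor KEAP1 holds it to a CUL3 ubiquitin ligase. Oxidants and electrophiles modify cysteines of KEAP1, NRF2 then escapes degradation, pairs with a small MAF protein such as MAFG, and binds antioxidant response elements near genes for glutathione synthesis, quinone reduction, heme breakdown and NADPH supply. Because the switch acts on protein stability, the level of NFE2L2 mRNA sets the supply of new protein but does not report its activity.

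Antioxidant response elements share the core letters TGACNNNGC, and 5 member promoters that hold it within the 250 bases before the start of transcription are shown. They were chosen by the match and not by the change of the gene. GCLM and KEAP1 fell with AT7519, and GSTP1 was near 0. PGD and ME1 rose with AT7519 on the deposited scale and were below control on the mitochondrial scale described further on. The sequences are from RefSeq (GRCh38.p14), on the strand of the gene, with the core or its reverse complement in capitals.
PGD, chr1:10398823-10398911, plus strand: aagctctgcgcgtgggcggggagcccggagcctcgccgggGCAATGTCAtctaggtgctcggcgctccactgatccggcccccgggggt
GCLM, chr1:93909431-93909504, minus strand: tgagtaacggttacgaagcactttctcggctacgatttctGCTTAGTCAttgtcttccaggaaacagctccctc
ME1, chr6:83431140-83431228, minus strand: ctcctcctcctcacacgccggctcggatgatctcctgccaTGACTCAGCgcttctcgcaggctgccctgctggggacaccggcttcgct
GSTP1, chr11:67583706-67583794, plus strand: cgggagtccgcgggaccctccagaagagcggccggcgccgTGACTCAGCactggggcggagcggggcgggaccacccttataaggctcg
KEAP1, chr19:10502772-10502865, minus strand: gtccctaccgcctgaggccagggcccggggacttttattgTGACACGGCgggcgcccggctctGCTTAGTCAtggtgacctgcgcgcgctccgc
GCLM and KEAP1 hold the same 9 letters on the strand opposite the gene, 34 and 31 bases before the start. The KEAP1 promoter shown holds a further match, TGACACGGC, 54 bases before it, and another KEAP1 promoter in the RefSeq table held 0 matches. ME1 and GSTP1 share TGACTCAGC, which also contains the AP-1 element TGACTCA, 137 and 66 bases before the start. The match in PGD lies 201 bases before it. Matches after the start are not in the sequences above. They lie 11 bases after it in ME1 and 30 bases after it in a promoter of MGST1. Searched on both strands from 250 bases before to 50 after the start, 6 of 38 promoters of the 26 members that matched the RefSeq table held the core (15.8%), against 4687 of 35116 promoters in the table (13.3%). A match is a description of these letters only, and no binding was measured.

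The libraries held between 60152710 and 154367238 reads assigned to genes, so that 3 reads, taken as the floor of detection, corresponded to 1.76 to 5.47 normalised counts. Prostate luminal markers were detected in full, 10 of 10 in every library with sums of 431224 to 532438 normalised counts. Leukocyte markers summed to at most 7.46, basal markers to at most 2.94 and the endothelial CDH5 was at 0 throughout. Of the neuroendocrine markers, CHGA reached at most 3.93, while SYP was detected in every library at 58.9 to 99.4. The genes listed as fibroblast markers were present in all libraries, and one of them, VIM, had 2304 and 2805 normalised counts in the combination, 2024 and 2285 with AT7519, 1753 and 1789.8 with OSMI-2, and 1423 and 1533 in control. COL1A1 ranged from 1814 to 3726 and PDGFRB from 61.0 to 86.4, and the part of these genes in the results was not tested. Antioxidant members took 0.825% and 0.816% of all counts in the combination, 0.845% and 0.841% with AT7519, 0.698% and 0.661% with OSMI-2, and 0.706% and 0.695% in control. The 13 mRNAs of the mitochondrial genome took 7.73% and 7.33% of counts in the combination, 7.04% and 6.57% with AT7519, 4.99% and 5.53% with OSMI-2, and 4.69% and 4.45% in control. A scale on which their sum is equal in all libraries, called the mitochondrial scale below, is therefore given beside the rises against control and against OSMI-2. Nothing in the labels says that the 2 libraries of a group came from separate cultures, so the p-values measure only the spread between these libraries, and in bulk RNA fewer expressing cells and less RNA per cell cannot be told apart.

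In control cells, the abundant members were the peroxide-reducing and iron-storing ones. On normalised counts per kilobase of exon, PRDX1, a cytosolic peroxiredoxin, had the highest level at 50509, followed by the ferritin chains FTH1 at 41164 and FTL at 20696, then PRDX6 at 19558 and TXN at 17147. The sensor and transcription factors were far lower, with KEAP1 at 1901, NFE2L2 at 1022 and MAFG at 513 per kilobase, and OSGIN1 was at 153. SRXN1, the sulfiredoxin that repairs overoxidised peroxiredoxins, had 42.6 per kilobase and GSTP1, a glutathione transferase that is often silent in prostate cancer, 0.923. GSTP1 had 1 and 0 reads in the combination, 2 and 0 with AT7519, 1 and 1 with OSMI-2, and 6 and 0 in control, so only control replicate 1 exceeded the 3-read floor. SOD2 has no value per kilobase because the annotation lists it under 2 gene records.

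The sensor KEAP1 and its target NFE2L2 fell with AT7519, as did OSGIN1, HMOX1, GCLC and GCLM, whereas most other members had higher normalised counts. With AT7519 alone, 6 members fell and 23 rose against control, where 27.2% of all tested genes fell and 26.0% rose. With the combination against control, 6 fell and 19 rose, where 27.6% and 26.3% of all genes did. The 6 that fell were the same in both comparisons, which share the control libraries: NFE2L2, KEAP1, OSGIN1, HMOX1, GCLC and GCLM. These 6 falls were called under every one of the 21 alternative settings, including all scalings, in both comparisons. The rises are a statement relative to the other mRNAs of the library, because each of them lay below control when libraries were set to equal mitochondrial mRNAs.

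NFE2L2 mRNA, which encodes NRF2 itself, had 2298 and 2046 normalised counts in the combination, 3462 and 3496 with AT7519, 6883 and 5933 with OSMI-2 and 6154 and 6067 in control. The 3 levels separated without overlap, with the combination lowest, AT7519 in between, and OSMI-2 and control together on top. The log2 change against control was -1.49 for the combination (SE 0.097, adjusted p = 3.57e-08) and -0.81 for AT7519 (SE 0.097, adjusted p = 8.94e-06), a 2.82-fold and a 1.76-fold lower level. NFE2L2 overlaps AGPS on the opposite strand, and the strand setting of the authors' counting is not given in the sources used here.

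KEAP1, the cysteine-bearing sensor that marks NRF2 for destruction, fell beside its target. It had 4602 and 4380.5 normalised counts in the combination, 5016 and 4004 with AT7519, 7511 and 6911 with OSMI-2 and 7242 and 7058 in control, so that every AT7519-exposed library was below every other library. The log2 change was -0.67 in the combination (SE 0.10, adjusted p = 7.34e-05) and -0.67 with AT7519 (SE 0.10, adjusted p = 7.77e-05). The ratio of NFE2L2 to KEAP1 counts, which needs no scaling between libraries, was 0.499 and 0.467 in the combination, 0.690 and 0.873 with AT7519, 0.916 and 0.858 with OSMI-2, and 0.850 and 0.859 in control. This ratio was chosen after the values were seen and was not tested. It was lowest in both combination libraries, while the AT7519 libraries straddled the control values.

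OSGIN1, a growth inhibitor induced by oxidative stress, fell furthest of the members. It had 82.0 and 113 normalised counts in the combination, 65.9 and 83.4 with AT7519, 633 and 538 with OSMI-2 and 511 and 549 in control. All libraries with AT7519 were at 113 or below and all without it at 511 or above, a log2 change of -2.45 for the combination (SE 0.22, adjusted p = 4.75e-07) and -2.82 for AT7519 (SE 0.22, adjusted p = 2.32e-07). MAFG, the small MAF partner of NRF2, went the other way on the deposited scale and rose with AT7519 by 0.52 (SE 0.11, adjusted p = 0.000808), with 3229 and 2929 normalised counts in the combination, 3921 and 3736 with AT7519, 2792 and 2539.7 with OSMI-2 and 2895 and 2462 in control. On the mitochondrial scale its AT7519 change was -0.40, and with equal totals it was 0.18 and not called (adjusted p = 0.18). Each of OSGIN1 and MAFG overlaps a coding gene on its own strand, AC009119.2 and SIRT7.

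Besides NFE2L2, KEAP1 and OSGIN1, the members that fell with AT7519 on the deposited scale were heme oxygenase and both subunits of glutamate-cysteine ligase. This ligase is the enzyme that limits glutathione synthesis. HMOX1, which breaks heme down to biliverdin, iron and carbon monoxide, had 261 and 197 normalised counts in the combination, 303 and 214 with AT7519, 952 and 567 with OSMI-2 and 551 and 584 in control. OSMI-2 replicate 1 stood above the other 7 libraries, and the 4 libraries with AT7519 were the lowest. Its log2 change was -1.32 in the combination (SE 0.24, adjusted p = 0.000318) and -1.15 with AT7519 (SE 0.24, adjusted p = 0.00097).

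GCLC, the catalytic subunit, had 2414 and 2486 normalised counts in the combination, 2204 and 2024 with AT7519, 4031 and 3466 with OSMI-2 and 3636 and 3461 in control. Its log2 change was -0.53 in the combination (SE 0.10, adjusted p = 0.000449) and -0.75 with AT7519 (SE 0.10, adjusted p = 2.68e-05). GCLM, the modifier subunit whose promoter is shown above, had 4894 and 4506 normalised counts in the combination, 4897 and 4372 with AT7519, 7532 and 5943 with OSMI-2 and 6243 and 6422 in control. Its changes were smaller, -0.43 in the combination (SE 0.11, adjusted p = 0.00385) and -0.45 with AT7519 (SE 0.11, adjusted p = 0.00283). For both subunits the libraries with AT7519 did not overlap those without it. Of the other members of glutathione recycling, GSR, which regenerates reduced glutathione, rose with AT7519 by 0.35 (adjusted p = 0.00145; -0.57 on the mitochondrial scale, -0.04 after quantile normalisation and 0.0035 with equal totals), and glutaredoxin GLRX was not called at 0.04 (adjusted p = 0.801).

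**Figure D1:**
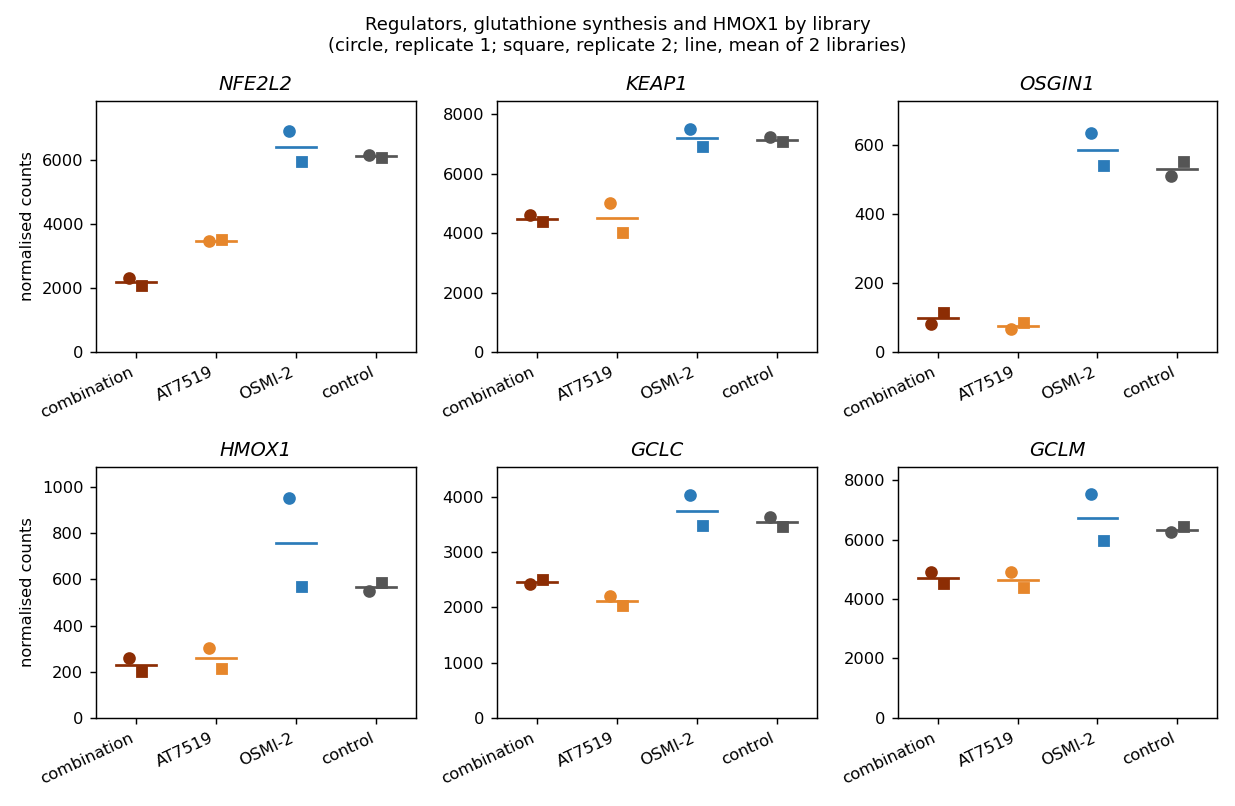
Normalised counts (vertical axes, linear from 0) of the 6 members that fell with AT7519, in the combination, AT7519, OSMI-2 and control groups; each point is 1 library and the line is the mean of 2. The 4 libraries with AT7519 lie below the 4 without it in all 6 panels, and NFE2L2 has a further step down, with 2298 and 2046 in the combination against 3462 and 3496 with AT7519.

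The peroxide-removing enzymes had higher normalised counts with AT7519 as a block. In the thioredoxin and peroxiredoxin system 8 of 9 members rose with AT7519 and 8 of 9 with the combination, SRXN1 being the exception in both, and each of these rises was below 0 on the mitochondrial scale. The median log2 change over the 32 tested members was 0.58 with AT7519, beside -0.0042 over all tested genes, and 0.32 with the combination, beside 0.02. After quantile normalisation the members' median was 0.15 with AT7519, beside 0.06 over all tested genes, and 0.12 with the combination, beside 0.08. On the mitochondrial scale the members' median was -0.34 with AT7519 and -0.66 with the combination. The median of all tested genes on that scale was -0.91 with AT7519 and -0.95 with the combination. All 32 members were below 0 there in both comparisons.

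TXN, the thioredoxin that hands electrons to peroxiredoxins, had 30732 and 25681 normalised counts in the combination, 35255 and 34599 with AT7519, 16353 and 14553 with OSMI-2 and 19386 and 19778 in control, a rise of 0.83 with AT7519 (SE 0.089, adjusted p = 3.2e-06) that became -0.08 on the mitochondrial scale. PRDX4, the peroxiredoxin of the endoplasmic reticulum, had 18335 and 18532 in the combination, 21697 and 19627 with AT7519, 10996 and 11574 with OSMI-2 and 11945 and 11470.5 in control, and rose with AT7519 by 0.82 (SE 0.077, adjusted p = 1.06e-06; -0.10 on the mitochondrial scale). For both genes the AT7519 libraries were the highest and no AT7519-exposed library overlapped an unexposed one.
PRDX5, which occurs in mitochondria, peroxisomes and cytosol, had 21425 and 22718 normalised counts in the combination, 21602 and 19593 with AT7519, 13097 and 13499.5 with OSMI-2 and 13314 and 13493 in control, and rose with the combination by 0.72 (SE 0.076, adjusted p = 2.28e-06; -0.26 on the mitochondrial scale). TXNRD2, the mitochondrial thioredoxin reductase, had 7207 and 8079 in the combination, 6892 and 7047 with AT7519, 4823 and 4810 with OSMI-2 and 4623 and 4513 in control, a rise of 0.74 in the combination (SE 0.084, adjusted p = 4.73e-06; -0.24 on the mitochondrial scale). For TXNRD2 both combination libraries were above both AT7519 libraries, and for PRDX5 these groups overlapped.

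Ferritin and the glutathione peroxidases behaved likewise. FTH1, the ferroxidase chain of the iron store, had 165040 and 160396 normalised counts in the combination, 149497 and 122951 with AT7519, 101583 and 93724 with OSMI-2 and 92879.6 and 74247 in control. It was the member with the largest rise in the combination at 0.97 (SE 0.11, adjusted p = 2.97e-06), which was -0.0079 and not called on the mitochondrial scale (adjusted p = 0.953). FTL, the light chain, had 28539 and 31064 in the combination, 31290.1 and 29602 with AT7519, 17733 and 17222 with OSMI-2 and 18345 and 17997 in control, and rose by 0.71 in the combination (SE 0.073, adjusted p = 1.74e-06; -0.27 on the mitochondrial scale) and by 0.74 with AT7519 (SE 0.073, adjusted p = 1.55e-06; -0.17). In both chains every AT7519-exposed library exceeded every unexposed one. Reads can be shared with processed copies, since the table lists 25 FTH1 pseudogenes with sums of 1583 to 3013 normalised counts per library and 16 FTL pseudogenes with sums of 104 to 558.

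GPX4, which reduces lipid hydroperoxides in membranes, had 25689 and 28756 normalised counts in the combination, 29941 and 31556 with AT7519, 15950.3 and 15476 with OSMI-2 and 16634 and 17436 in control. It had the largest rise of the members with AT7519 at 0.85 (SE 0.077, adjusted p = 7.57e-07; -0.06 on the mitochondrial scale). GPX1, the general cytosolic peroxidase, had 18749 and 18901 in the combination, 19346 and 18564 with AT7519, 11542 and 11433 with OSMI-2 and 11557 and 11026 in control, and rose by 0.74 in the combination (SE 0.072, adjusted p = 1.05e-06; -0.24 on the mitochondrial scale). With AT7519 GPX1 rose by 0.75 (SE 0.072, adjusted p = 1.28e-06; -0.17 on the mitochondrial scale). The table lists 2 GPX1 pseudogenes with sums of 2388 to 4441 normalised counts per library, so reads of GPX1 can also be shared. The membrane-bound transferase MGST1 also rose in both comparisons on the deposited scale (0.46 in the combination and 0.68 with AT7519, against -0.52 and -0.23 on the mitochondrial scale). ABCC1, which exports glutathione conjugates, rose in the combination by 0.36 (adjusted p = 0.00184; -0.62 on the mitochondrial scale) and was not called with AT7519 at 0.13 (adjusted p = 0.19).

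NQO1, a quinone reductase often used as a readout of NRF2, did not follow NFE2L2 on the deposited scale. It had 28869 and 26208 normalised counts in the combination, 34220.5 and 33109 with AT7519, 20783 and 17043 with OSMI-2 and 21597 and 24074 in control, and rose with AT7519 by 0.56 (SE 0.095, adjusted p = 0.00018; -0.35 on the mitochondrial scale). The combination was between AT7519 and control, at 0.27 against control (SE 0.095, adjusted p = 0.026; -0.71 on the mitochondrial scale). That call was lost without control replicate 1 (0.19, adjusted p = 0.2) and without combination replicate 1 (0.20, adjusted p = 0.177), and with equal totals the change was 0.01. The ratio of NFE2L2 to NQO1 counts was 0.0796 and 0.0781 in the combination, 0.101 and 0.106 with AT7519, 0.331 and 0.348 with OSMI-2, and 0.285 and 0.252 in control. This ratio was also chosen after the values were seen and not tested; its 4 groups did not overlap.

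The 4 members listed under NADPH supply were the pentose phosphate enzymes PGD, TALDO1 and TKT and the malic enzyme ME1. All 4 rose with AT7519 and 2 of 4, PGD and TALDO1, with the combination, all of them below 0 on the mitochondrial scale. TKT, the transketolase of the pentose phosphate pathway, had 39522 and 41861 normalised counts in the combination, 53947 and 56436 with AT7519, 30527 and 30854 with OSMI-2 and 36754 and 36205 in control. Its change was 0.60 with AT7519 (SE 0.068, adjusted p = 5.76e-06; -0.32 on the mitochondrial scale) but 0.16 and not called in the combination (adjusted p = 0.0648). Among the genes that remove superoxide and hydrogen peroxide, SOD1, SOD2 and CAT rose with AT7519 and SOD1 and CAT with the combination, likewise with values below 0 on the mitochondrial scale. The SOD2 rise of 0.27 (adjusted p = 0.0103) was lost without control replicate 1 (0.20, adjusted p = 0.115) or AT7519 replicate 1 (0.22, adjusted p = 0.0714) and was -0.07 with equal totals.

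**Figure D2:**
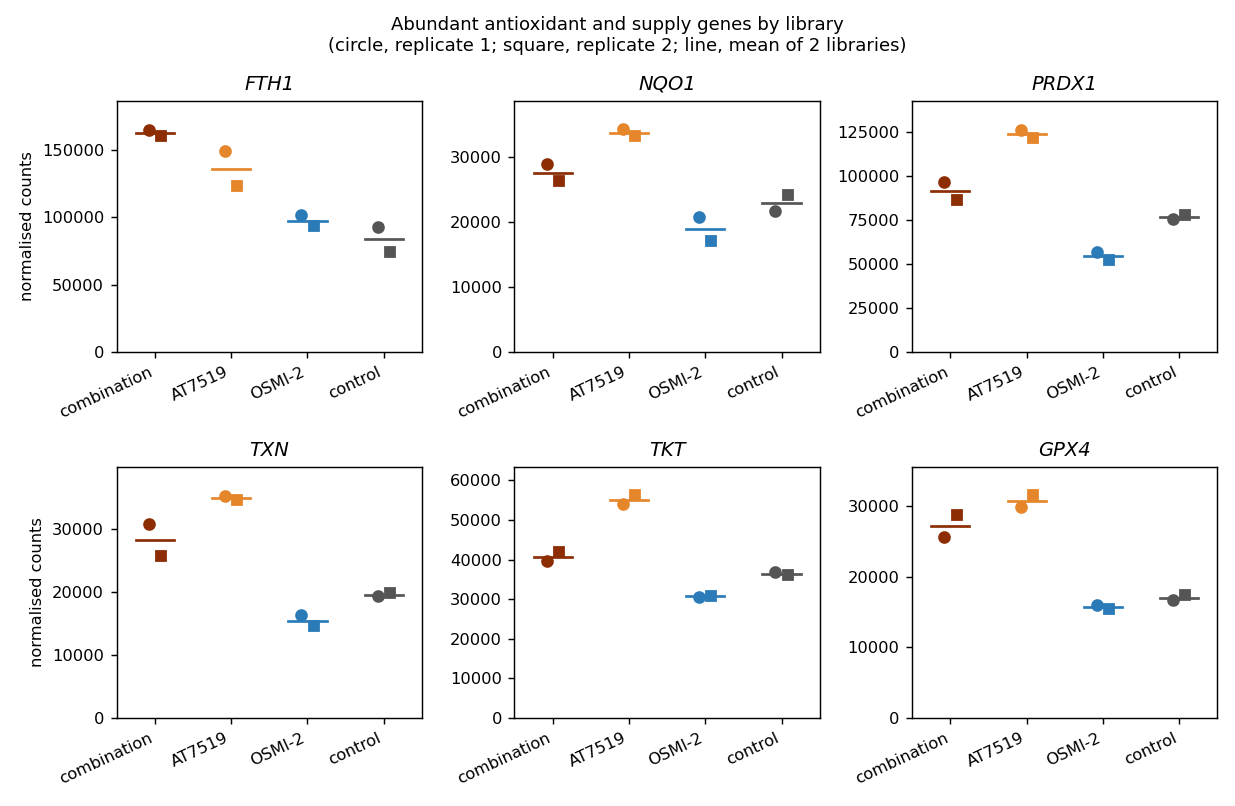
Normalised counts (vertical axes, linear from 0) of FTH1, NQO1, PRDX1, TXN, TKT and GPX4 in the combination, AT7519, OSMI-2 and control groups; each point is 1 library and the line is the mean of 2. The libraries with AT7519 lie above those without it in all 6 panels on this deposited scale, whereas their changes against control are below 0 on the mitochondrial scale; NQO1, PRDX1, TXN and TKT are lower in the combination than with AT7519, as TKT shows at 39522 and 41861 in the combination against 53947 and 56436 with AT7519.

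How far each member stood from the rest of the library could be read on several scales. Normalised totals were larger with AT7519, and setting all totals equal moved the median of all tested genes to -0.34 with AT7519 and -0.23 with the combination. On that scale 16 members rose and 7 fell with AT7519, ABCC1 being the additional fall, where 10.5% and 43.1% of all tested genes did. Quantile normalisation gave 14 rises and 6 falls, where 27.3% and 23.7% of all tested genes rose and fell. With equal mitochondrial mRNAs 20 of the 32 tested members fell with AT7519 and 29 with the combination, where 75.6% and 75.2% of all tested genes fell, and at an unadjusted p below 0.05 the members that were higher numbered 0 in either comparison. The order among members was retained in one respect on all scales: NFE2L2, KEAP1, OSGIN1, HMOX1, GCLC and GCLM had negative changes throughout, their AT7519 changes ranging over all settings from -3.73 to -2.55 for OSGIN1 and from -1.37 to -0.37 for GCLM.

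**Figure D3:**
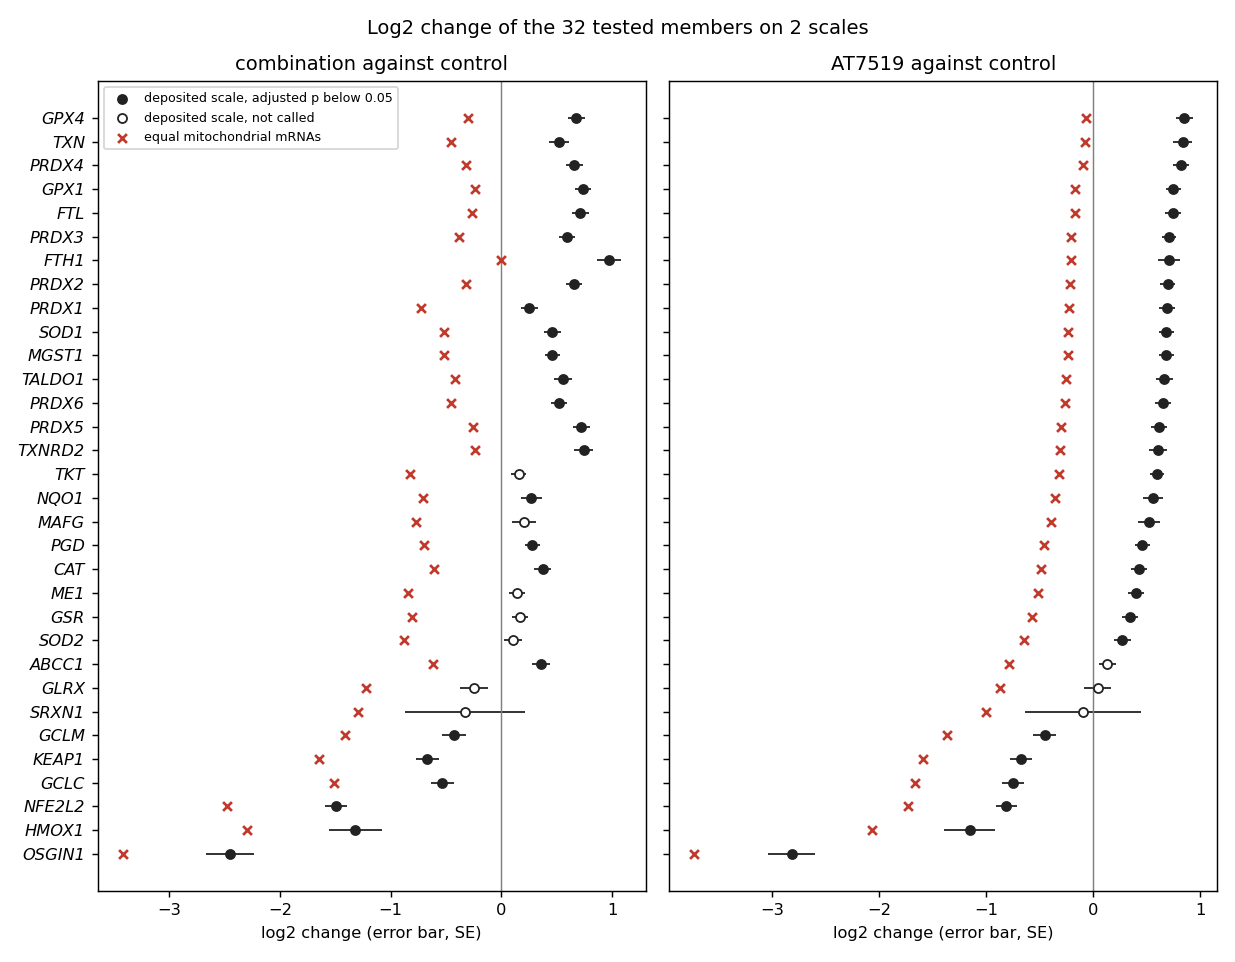
Log2 change (horizontal axis) of the 32 tested members in the combination (left) and with AT7519 (right), each against control; circles are the deposited scale with SE, filled where adjusted p is below 0.05, and crosses are the scale with equal mitochondrial mRNAs. Every cross lies below 0, while the circles of 19 members in the combination and 23 with AT7519 are called above 0; the 6 members at the bottom are called below 0 on both scales.

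Part of the set was lower in the combination than with AT7519 alone. Between the combination and AT7519, 9 members fell and 0 rose by limma, where 12.5% and 7.21% of all tested genes did. At an unadjusted p below 0.05, 13 were lower and 2 higher, where 6305 of the 19393 tested genes passed in either direction. By edgeR there were 5 falls and 1 rise, and by DESeq2 9 falls and 0 rises. Over all tested genes edgeR called 3489 and DESeq2 4220 in either direction. The median change of the members was -0.16, beside -0.02 over all tested genes. The 9 were NFE2L2, MAFG, NQO1, PRDX1, TXN, TKT, ME1, MGST1 and SOD1, and in each of them both combination libraries were below both AT7519 libraries. Against control, NFE2L2 had fallen with AT7519, while the other 8 had risen with it on the deposited scale and were below 0 on the mitochondrial scale.

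NFE2L2 had the largest of these falls, with 2298 and 2046 normalised counts in the combination against 3462 and 3496 with AT7519, a log2 change of -0.68 (SE 0.097, adjusted p = 0.000411). It was called under all 21 alternatives, the weakest having an adjusted p of 0.0407. TKT, at 39522 and 41861 in the combination against 53947 and 56436 with AT7519, fell by 0.44 on the log2 scale (SE 0.068, adjusted p = 0.000688) and was also called under all 21. PRDX1 had 96614 and 86646 normalised counts in the combination, 126252 and 121878 with AT7519, 57182 and 52581 with OSMI-2 and 75782 and 77967 in control, a change of -0.44 between combination and AT7519 (SE 0.074, adjusted p = 0.00126), and lost its call under 1 setting, without a variance trend (adjusted p = 0.059). Against control PRDX1 in the combination was at 0.25 (adjusted p = 0.0106), a rise that was lost without control replicate 1 (0.23, adjusted p = 0.0632) or combination replicate 1 (0.17, adjusted p = 0.128) and was -0.01 with equal totals, -0.19 after quantile normalisation and -0.73 on the mitochondrial scale.

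The other 6 falls were smaller and depended on the scaling, the method and single libraries. Of the 21 alternatives the call was lost in 15 for MAFG, 15 for SOD1, 13 for NQO1, 11 for MGST1, 8 for ME1 and 7 for TXN. All 6 calls were lost with equal totals, equal upper quartiles, quantile normalisation and no variance trend. TXN changed by -0.31 (adjusted p = 0.0238), and by -0.18 without combination replicate 2 (adjusted p = 0.251) and -0.30 without AT7519 replicate 1 (adjusted p = 0.0927). MAFG changed by -0.32 (adjusted p = 0.0491) and was not called without either OSMI-2, either AT7519 or either combination library (adjusted p of 0.0573 to 0.256). NQO1 changed by -0.29 (adjusted p = 0.0442) and was not called without either control, either AT7519 or either combination library (0.0519 to 0.263). The calls of MAFG and NQO1 lay close to the threshold. OSMI-2 and control libraries do not enter this comparison, so leaving 1 of them out altered the estimated spread and the adjustment, not the size of the change.
SOD1 changed by -0.22 (adjusted p = 0.0455). Of the fits with 1 library left out, it kept its call only in that without AT7519 replicate 2. MGST1, at -0.23 (adjusted p = 0.0304), was not called without AT7519 replicate 1 (0.134), combination replicate 1 (0.145) or combination replicate 2 (0.0782). ME1, the malic enzyme that makes NADPH in the cytosol, was at -0.26 (adjusted p = 0.022) and was not called without AT7519 replicate 1 (0.0698), AT7519 replicate 2 (0.0577) or combination replicate 1 (0.144). The count of members called was 4 without AT7519 replicate 1 (3 falls and a rise of FTH1), 5 without combination replicate 1 (4 falls and a rise of ABCC1) and 4 without combination replicate 2. With equal totals it was 3 falls, those of NFE2L2, PRDX1 and TKT, and 2 rises, those of ABCC1 and FTH1. Of all tested genes, 7.91% fell and 10.4% rose on that scale. With equal upper quartiles the members called were the same 3 falls and 3 rises, those of ABCC1, FTH1 and GCLC. There 7.43% of all tested genes fell and 11.3% rose.
KEAP1, GCLM, GCLC, HMOX1 and OSGIN1, which fell with AT7519, were not called between the combination and AT7519, with changes of 0.0026, 0.02, 0.21, -0.16 and 0.37. The intervals left room for sizeable differences in the scarcer ones, from -0.68 to 0.35 for HMOX1 and from -0.09 to 0.84 for OSGIN1 (95% intervals, log2).

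The effect of OSMI-2 on NFE2L2 differed with and without AT7519. OSMI-2 changed NFE2L2 by -0.68 in cells that also had AT7519 and by 0.06 in cells that did not (adjusted p = 0.804, not called), a difference of -0.75 (SE 0.14, adjusted p = 0.0204 for the interaction). It was the 1 member called for this interaction, where 0.975% of all tested genes were called lower and 0.0619% higher. At an unadjusted p below 0.05 no further member passed, where 1962 of the 19393 tested genes did. The call was lost without control replicate 1 (-0.76, adjusted p = 0.118), control replicate 2 (-0.74, 0.12), OSMI-2 replicate 1 (-0.64, 0.151), OSMI-2 replicate 2 (-0.85, 0.102), AT7519 replicate 1 (-0.75, 0.0532) or combination replicate 2 (-0.66, 0.0913). The size of the difference stayed between -0.64 and -0.85 over all settings.

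With OSMI-2 alone few members were called on the deposited scale. By limma 1 member fell and 0 rose, where 2.38% and 0.645% of all tested genes did. At an unadjusted p below 0.05 11 were lower and 1 higher, where 3450 of the 19393 tested genes passed in either direction. DESeq2 called 6 members lower, PRDX1, SOD1, TXN, TKT, GSR and GLRX, edgeR called 2, and both called 0 higher. Over all tested genes DESeq2 called 1496 and edgeR 667 in either direction. On the mitochondrial scale 7 members were called lower and 0 higher, where 6.05% and 0.505% of all tested genes were. The median change of the members was -0.08, beside -0.02 over all tested genes. The member called by limma was PRDX1, at 57182 and 52581 normalised counts with OSMI-2 against 75782 and 77967 in control, a log2 change of -0.49 (SE 0.074, adjusted p = 0.00761) that was negative under all 21 alternatives. The call was lost without control replicate 2 (-0.47, adjusted p = 0.153), without OSMI-2 replicate 2 (-0.43, adjusted p = 0.11) and without a variance trend (adjusted p = 0.263).
TXN and SOD1 lay just beyond the threshold with OSMI-2, at -0.34 (adjusted p = 0.0528) and -0.29 (adjusted p = 0.05), and both OSMI-2 libraries were below both control libraries in each. HMOX1 had the highest positive value, 0.37, with a 95% interval from -0.14 to 0.89, and rested on the 952 normalised counts of OSMI-2 replicate 1.

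The same agent could be compared across both backgrounds on separate libraries. Over the 32 tested members the change made by OSMI-2 with AT7519 present (combination against AT7519) and without it (OSMI-2 against control) had the same sign in 28, with Pearson r of 0.51 and Spearman rho of 0.65 across genes, and r of 0.66 without NFE2L2. Across all 19393 tested genes r was 0.35, and the share of them with the same sign was not computed. Signs also depend on scaling. With OSMI-2 against control 10 members were above 0 and 22 below on the deposited scale. The numbers were 16 and 16 with equal totals, and 18 and 14 after quantile normalisation. Genes are not independent replicates, and each pair of libraries shares its scaling, so these are descriptions without a p. PRDX1 had -0.44 with AT7519 present and -0.49 without it, a difference of 0.05 (95% interval -0.18 to 0.27, interaction adjusted p = 0.955). TXN had -0.31 with AT7519 present and -0.34 without it, and NQO1 -0.29 and -0.28 in these backgrounds.

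**Figure D4:**
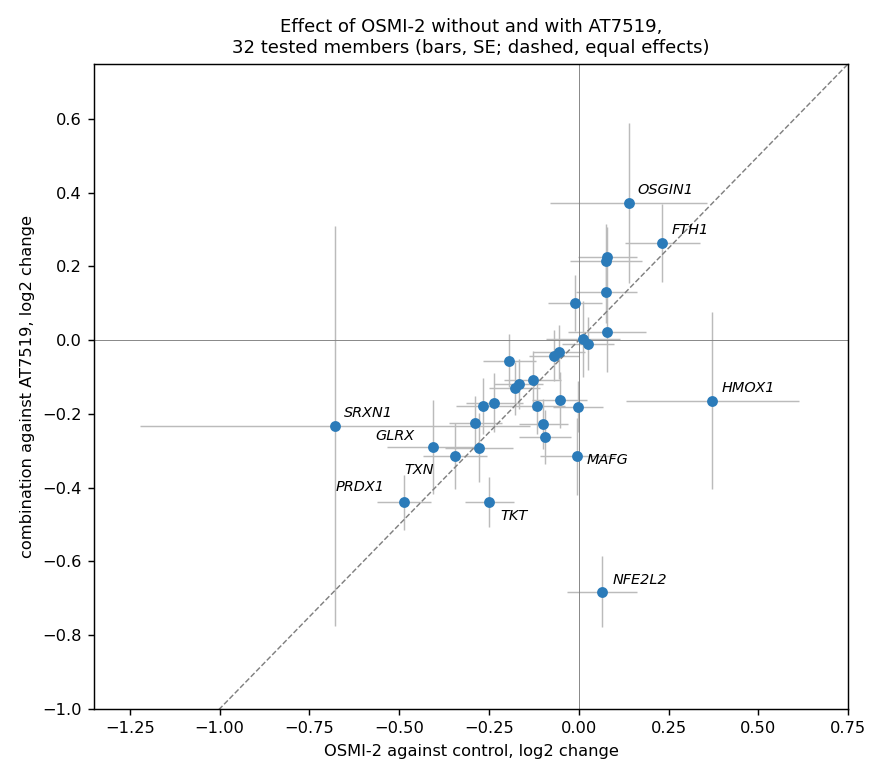
Log2 change made by OSMI-2 in the presence of AT7519 (vertical axis, combination against AT7519) and in its absence (horizontal axis, OSMI-2 against control) for the 32 tested members; bars are SEs and the dashed line marks equal effects. Most members lie in the lower left near the line; NFE2L2 stands apart at -0.68 with AT7519 and 0.06 without it.

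Adding AT7519 to OSMI-2 gave 6 falls, of the same genes as against control, and 23 rises on the deposited scale, where 27.3% and 27.5% of all tested genes fell and rose. The falls in the combination against OSMI-2 were -2.59 for OSGIN1, -1.69 for HMOX1, -1.56 for NFE2L2, -0.68 for KEAP1, -0.61 for GCLC and -0.51 for GCLM, with adjusted p between 2.66e-08 and 0.00112, and each was called under all 21 alternatives. The largest rises were those of TXN at 0.86, GPX4 at 0.79, FTL at 0.77, PRDX3 at 0.76 and SOD1 at 0.75. On the mitochondrial scale TXN was at 0.01 and the other 31 tested members were below 0.
PRDX3, the peroxiredoxin of mitochondria, had 60737 and 61439.6 normalised counts in the combination, 67461 and 65158 with AT7519, 36954 and 35301 with OSMI-2 and 39361 and 41774 in control. SOD1, the cytosolic superoxide dismutase, had 37674 and 35704 in the combination, 44380.1 and 41370.5 with AT7519, 22729.8 and 20968 with OSMI-2 and 26997 and 26332 in control. In both genes the 4 AT7519-exposed libraries were above the others on the deposited scale, and on the mitochondrial scale the combination was -0.10 and -0.10 against OSMI-2. The calls of ABCC1 (0.28) and ME1 (0.23) in this comparison were lost without OSMI-2 replicate 1 (0.25 and 0.22) or combination replicate 2 (0.20 and 0.17), and with equal totals the changes were -0.06 and -0.10.

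Other genes of redox control formed a list of 70, of which 65 were tested. Against control 35 rose and 11 fell with AT7519, and 28 rose and 13 fell with the combination. Of all tested genes, 26.0% rose and 27.2% fell with AT7519, while the combination gave 26.3% of rises and 27.6% of falls. On the mitochondrial scale 55 and 56 of the list fell, where 75.6% and 75.2% of all tested genes did. Of 12 regulators of NRF2 and their relatives, 6 fell and 3 rose with AT7519, and 7 fell and 1 rose with the combination, the rises being on the deposited scale. GSK3B, the kinase that primes NRF2 for a KEAP1-independent degradation, had 4641 and 4541 normalised counts in the combination, 6136 and 5048 with AT7519, 15554 and 15710.2 with OSMI-2 and 15626 and 14849.6 in control, a log2 change of -1.73 in the combination (adjusted p = 8.7e-09) and -1.45 with AT7519 (adjusted p = 5.68e-08). BTRC, the ubiquitin ligase adaptor that recognises the primed NRF2, had 789 and 853 in the combination, 862 and 866 with AT7519, 2037 and 2169 with OSMI-2 and 2169 and 2104 in control, changes of -1.38 and -1.30 (adjusted p = 1.75e-07 in the combination and 4.18e-07 with AT7519). Both falls were called under all 21 alternatives. KEAP1, of one route of NRF2 degradation, and GSK3B and BTRC, of the other, were thus lower beside NFE2L2, but not every listed regulator was. RBX1 had 939 and 768 normalised counts in the combination, 976 and 1040 with AT7519 and 726 and 804 in control. SQSTM1 had 30939 and 32598 in the combination, 32188 and 29278 with AT7519 and 35152 and 28942 in control. Whether either route as a whole changed was not tested.

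Between the combination and AT7519, 13 of the 65 tested genes of this list fell and 5 rose, where 12.5% and 7.21% of all tested genes did. The rises included ABCC5 at 0.55 (adjusted p = 0.00335) and GPX8 at 0.39 (adjusted p = 0.0223). These calls were lost under 1 and 5 of the 21 alternatives. FBXW11, the close relative of BTRC, resembled NFE2L2 in where it fell. It had 6291 and 5529 normalised counts in the combination, 10162 and 9317 with AT7519, 11724 and 11216 with OSMI-2 and 11300.1 and 11838 in control, a change of -0.72 between combination and AT7519 (adjusted p = 0.000146), and was by limma the 1 listed gene outside the members called for the interaction (2 by DESeq2), at -0.71 (adjusted p = 0.0173). The interaction call was lost without control replicate 1 (0.102), control replicate 2 (0.0811), OSMI-2 replicate 1 (0.0981), OSMI-2 replicate 2 (0.102), AT7519 replicate 1 (0.0533) or combination replicate 2 (0.0708), each value being an adjusted p. BACH1, a repressor that competes with NRF2 for its sites, had 2217 and 1984 in the combination against 3391 and 2774 with AT7519, a change of -0.55 (adjusted p = 0.00433) that was lost without combination replicate 2 (-0.47, adjusted p = 0.0507). CUL3, the ligase scaffold that KEAP1 uses, was singled out after its values were seen and had 5144 and 5234 in the combination, 6953 and 7159 with AT7519, 6785 and 6749 with OSMI-2 and 7728 and 8176 in control, -0.44 between combination and AT7519 (adjusted p = 0.00163).

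SLC7A11, the cystine importer that feeds glutathione synthesis, was by limma on the deposited scale the 1 listed gene that rose with OSMI-2 alone; DESeq2 called 2 higher and quantile normalisation 3. It had 39304 and 31126 normalised counts in the combination, 22399.9 and 20013 with AT7519, 51297 and 40160.5 with OSMI-2 and 28457 and 30264 in control, a rise of 0.72 between combination and AT7519 (adjusted p = 0.000985) and of 0.63 between OSMI-2 and control (adjusted p = 0.0164). On the mitochondrial scale these rises were 0.66 and 0.50, both called. The rise with OSMI-2 alone was lost without control replicate 1 (0.58, adjusted p = 0.0762), control replicate 2 (0.67, 0.22) or OSMI-2 replicate 1 (0.45, 0.122). GLRX3, a glutaredoxin of iron-sulfur protein assembly, fell with OSMI-2 by 0.37 on the log2 scale (limma, adjusted p = 0.0249). By limma on the deposited scale it was the 1 listed gene that fell (7 by DESeq2, 6 with equal mitochondrial mRNAs). The call was lost under 8 of the 21 alternatives. These were equal totals, equal upper quartiles, no filter, no variance trend, and leaving out any 1 of the 4 libraries compared. The change was -0.38 and -0.37 without OSMI-2 replicates 1 and 2, and -0.42 and -0.33 without control replicates 1 and 2.

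CHAC1, which degrades glutathione, was the listed gene that fell furthest, with 261 and 169.6 normalised counts in the combination, 238 and 289 with AT7519, 1929 and 1125 with OSMI-2 and 1881 and 1703 in control (-3.08 in the combination and -2.77 with AT7519, both called under all 21 alternatives). Against control, EPHX1, an epoxide hydrolase, rose by 0.81 in the combination and 0.70 with AT7519, values that were -0.17 in the combination and -0.21 with AT7519 on the mitochondrial scale. SOD3, the secreted superoxide dismutase, rose by 0.79 in the combination and 0.83 with AT7519, and was at -0.19 and -0.08 on the mitochondrial scale. MGST3, a microsomal transferase, rose by 0.79 with AT7519 (-0.12 on the mitochondrial scale). AKR1C1, an aldo-keto reductase, rose by 0.92 in the combination (adjusted p = 0.0076; -0.05 on the mitochondrial scale), a call lost without control replicate 1 (0.0785) or combination replicate 2 (0.0671).

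SRXN1 and GLRX were not called in any comparison by limma on the deposited scale. SRXN1 had 120 and 31 reads in the combination, 152 and 49 with AT7519, 70 and 75 with OSMI-2, and 274 and 75 in control. Its normalised counts, 123 and 56.5 in the combination, 193 and 49.8 with AT7519, 68.7 and 62.1 with OSMI-2 and 161 and 68.7 in control, were higher in replicate 1 of each group, and all groups overlapped. The SE of its changes was 0.54 on the log2 scale, beside 0.068 for PRDX3. Glutaredoxin GLRX had 820.2 and 837 normalised counts in the combination, 1091 and 941 with AT7519, 710.4 and 774 with OSMI-2 and 959.8 and 1007 in control, and both OSMI-2 libraries were below both control libraries and both combination libraries below both AT7519 libraries. DESeq2 called GLRX lower with OSMI-2, at -0.41 (adjusted p = 0.0293), where limma gave an adjusted p of 0.099.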

How the data were processed

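RNA sequencing libraries of 8 samples in 4 groups of 2 were analysed. Per the extract protocol in the labels, a strand-specific TruSeq kit was used; the submitters' processing notes list the tools STAR, HTSeq and DESeq2, and hg19 and GRCh37 as builds. The sources used here do not state versions, annotation or the strand setting of counting. The authors deposited a normalised signal for each gene: its read count scaled by 1 factor for each library. Dividing by the smallest step of each column gave whole reads for 100% of values (tolerance 0.01), with 60152710 to 154367238 reads per library. There were 0 unmapped sample columns, and 28 nameless lines were removed.

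Genes with a mean of at least 10 were tested on log2(value + 1), so that fold changes of low genes are understated, in one limma 3.58.1 model of the 4 group means with a mean-variance trend (R 4.3.3; 4 residual and 10.1 prior degrees of freedom). P-values are two-sided and adjusted by Benjamini-Hochberg over 19393 genes, and an adjusted p below 0.05 is a call. The model and code were checked on simulated data. Alternatives were pseudocounts of 0.5 and 5, no filter, a mean of at least 50, equal totals, upper quartiles or mitochondrial mRNAs, quantile and TMM scaling, no variance trend, edgeR 4.0.16 and DESeq2 1.42.0 on the recovered reads, the replicate number as a block, and each library left out; where 1 library remains in a group it is assumed to vary like the others.

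The members, the related genes and the markers were chosen with earlier results of these data known. Values in every library are given for NFE2L2, KEAP1, HMOX1, NQO1, GCLC and GCLM and, per comparison, for up to 5 called rises and 5 falls; related genes were named up to 3 per direction with a mean of at least 50, apart from some left out for brevity. Lengths, overlaps and pseudogenes are from GENCODE 29 by symbol. Intervals of changes come from the spread between libraries in the model, and the 3-read floor covers counting error only.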

Additional observations from a re-analysis of the deposited data

Results flagged for a closer look

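NFE2L2, the gene of NRF2, was the 1 member whose response to OSMI-2 differed by the presence of AT7519 in the interaction test. The effect of OSMI-2 with AT7519 minus that without it was -0.75 on the log2 scale (adjusted p = 0.0204 by limma), from 2298 and 2046 normalised counts in the combination, 3462 and 3496 with AT7519, 6883 and 5933 with OSMI-2, and 6154 and 6067 in control. The OSMI-2 libraries differed between themselves by more than the other pairs, and the effect was -0.64 without OSMI-2 replicate 1 (adjusted p = 0.151) and -0.85 without OSMI-2 replicate 2 (adjusted p = 0.102).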

How the results depend on the processing

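Of the members called, the count with OSMI-2 against control was 1, and it was 3 with a pseudocount of 5 and with a mean of at least 50, 7 with equal mitochondrial mRNAs, 2 with TMM and with edgeR, 6 with DESeq2, 0 without a variance trend, and 0 to 3 when a library was left out. Between the combination and AT7519 it was 9, and 4 without a filter, 5 with equal totals and with equal mitochondrial mRNAs, 4 with quantile scaling, 2 without a variance trend and 4 to 7 when a library was left out. Between the combination and OSMI-2 it was 29, and 17 with equal mitochondrial mRNAs. The interaction count was 1, and 0 without a filter or a variance trend and 0 to 1 when a library was left out. Against control, the counts of 25 for the combination and 29 for AT7519 stayed within 1.5 times under these settings, although their direction did not.

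Among the values given in every library as the largest called changes, the reversals were those with equal mitochondrial mRNAs. Other calls of PRDX1, SOD2, GSR, ABCC1 and ME1 reversed with equal totals or quantile scaling, as given above. Between the combination and OSMI-2 the rise of PGD also reversed with equal totals and with quantile scaling. The rises of TKT and FTH1 in that comparison reversed with quantile scaling. Quantile scaling also called PRDX1 and TKT lower in the combination than in control. With AT7519 against control the log2 values with equal mitochondrial mRNAs were -0.17 for FTL, -0.17 for GPX1, -0.064 for GPX4, -0.35 for NQO1, -0.098 for PRDX4 and -0.081 for TXN. For the combination against control they were -0.0079 for FTH1, -0.27 for FTL, -0.24 for GPX1, -0.71 for NQO1, -0.26 for PRDX5 and -0.24 for TXNRD2. For the combination against OSMI-2 they were -0.085 for FTL, -0.063 for GPX4, -0.31 for NQO1, -0.095 for PRDX3 and -0.105 for SOD1. This scale divides by 13 mRNAs whose share of counts was higher with AT7519, and which scale is nearer to RNA per cell was not tested.

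Replicate numbers were not treated as pairs, since the correlation of replicate differences between groups was 0.02 to 0.12. With the replicate block 3 members were called with OSMI-2 against control, PRDX1, SOD1 and TXN, and 11 between the combination and AT7519; the block changed no other count of members. Over all tested genes, calls with OSMI-2 numbered 586, against 101 without a filter, 262 with equal totals, 285 with equal upper quartiles, 1271 with equal mitochondrial mRNAs, 0 without a variance trend (2788 at an unadjusted p below 0.05), 1496 with DESeq2, and, with 1 library left out, 15 (OSMI-2 replicate 2), 117 (OSMI-2 replicate 1), 2 (control replicate 2) and 297 (control replicate 1). Between the combination and AT7519 they numbered 3815, against 865 without a variance trend, 2191 without AT7519 replicate 1 and 1683 without combination replicate 2. For the interaction they numbered 201, against 33 without a filter, 0 without a variance trend, 118 with upper quartiles, 131 with quantile scaling, 558 with DESeq2, 404 with the block, 2 to 7 without a control or an OSMI-2 library, 72 without AT7519 replicate 1, 55 without combination replicate 2, and 490 and 434 without AT7519 replicate 2 and combination replicate 1. The cause of these differences was not tested, and with 2 libraries a group the spread of each gene rests largely on that of other genes.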
